A study of Mus musculus with 11 samples.

Results

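These are the 646 autosomal regions that were called in both day 2 (D2) lists and in at least 1 day 4 (D4) list of Xist RNA pulldowns from female mouse epiblast-like cells (EpiLCs). They were found by joining all peaks of the 4 EpiLC lists that share at least 1 bp, which gave 11561 merged regions, and keeping those overlapped by both D2 lists and by 1 or both D4 lists. The comparison set was the 2676 merged regions called in both D2 lists and in no D4 list. The assay was RNA antisense purification (RAP-seq), in which crosslinked chromatin is captured with probes against an RNA and the attached DNA is sequenced. The EpiLCs came from female embryonic stem cells adapted to LIF with the inhibitors CHIR99021 and PD0325901 and then moved to Activin A and bFGF, and were taken at D2 (n = 2 libraries) and D4 (n = 2). Female and male embryonic fibroblasts (MEFs) gave 1 pulldown library each, and no further agent was added to any of these cells. Sources used here name neither the strain nor the cell line. The labels mark the replicate 1 EpiLC libraries of both days as a re-analysis of data deposited earlier. They do not say whether replicates were separate cultures, so the spread between them may be technical.

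In female mammals the long noncoding RNA Xist spreads along 1 X chromosome and brings in factors that silence its genes. Female embryonic stem cells have both X chromosomes active, and X inactivation starts as they leave the naive state, so D2 and D4 EpiLCs sample the time at which Xist is being switched on. Male fibroblasts lack an inactive X and as a rule make no Xist, so the male MEF list shows what the pulldown calls where little Xist is present. No RNA levels were measured in these libraries, so cell type markers could not be read. Each list gives peaks on the autosomes only, with a fold enrichment over the peak caller's background that is the authors' own value for that peak. The lists held 8227 and 7544 peaks in D2 replicates 1 and 2, 1553 and 1148 in the D4 replicates, 1020 in female MEFs and 326 in male MEFs. They carry no read counts, so sequencing depth is unknown and its part in these numbers was not tested.

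All positions are on mm9, counted from 1. No mm9 genome or gene annotation was used here, so whether a region covers an exon, an intron or a promoter was not determined. Locus names are working names for the interval, and the order of genes is that of RefSeq on GRCm38. The long region that was covered almost alike at D2 and D4 spans the interval from Atp2b2, a plasma membrane calcium pump, to Hrh1, a histamine receptor. Slc6a11, a GABA transporter gene, lies between them in that order. The 250 bases before the first listed start of Atp2b2, Slc6a11 and Hrh1 are shown because their interval lay under peaks of both days and of female MEFs. Those of Prdm16, a transcription factor gene of brown fat and blood stem cells, and Ano1, a calcium-activated chloride channel gene, are shown as loci with long regions covered in part at D4. The sequences are from RefSeq (GRCm38.p6), read 5′ to 3′ on the gene's strand, with CG dinucleotides in capitals.
Atp2b2: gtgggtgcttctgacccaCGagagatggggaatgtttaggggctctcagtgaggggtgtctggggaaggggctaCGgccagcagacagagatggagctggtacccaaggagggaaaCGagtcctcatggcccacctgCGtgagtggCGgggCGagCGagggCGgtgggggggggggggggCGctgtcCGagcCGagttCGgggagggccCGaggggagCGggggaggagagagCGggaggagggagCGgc
Slc6a11: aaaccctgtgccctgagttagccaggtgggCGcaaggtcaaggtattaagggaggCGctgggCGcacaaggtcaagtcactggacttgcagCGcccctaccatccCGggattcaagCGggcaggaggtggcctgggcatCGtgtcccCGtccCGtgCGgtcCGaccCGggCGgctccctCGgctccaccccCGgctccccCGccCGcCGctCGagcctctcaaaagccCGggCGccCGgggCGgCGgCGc
Hrh1: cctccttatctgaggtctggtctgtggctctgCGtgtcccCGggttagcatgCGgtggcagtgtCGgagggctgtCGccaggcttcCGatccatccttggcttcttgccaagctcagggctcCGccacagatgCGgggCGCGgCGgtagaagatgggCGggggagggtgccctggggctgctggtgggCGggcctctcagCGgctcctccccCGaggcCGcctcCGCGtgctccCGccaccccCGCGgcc
Prdm16: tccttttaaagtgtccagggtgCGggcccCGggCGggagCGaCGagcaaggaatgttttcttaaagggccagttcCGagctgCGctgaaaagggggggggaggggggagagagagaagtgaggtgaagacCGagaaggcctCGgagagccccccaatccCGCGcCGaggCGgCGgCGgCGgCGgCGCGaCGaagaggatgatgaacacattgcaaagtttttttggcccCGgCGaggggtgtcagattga
Ano1: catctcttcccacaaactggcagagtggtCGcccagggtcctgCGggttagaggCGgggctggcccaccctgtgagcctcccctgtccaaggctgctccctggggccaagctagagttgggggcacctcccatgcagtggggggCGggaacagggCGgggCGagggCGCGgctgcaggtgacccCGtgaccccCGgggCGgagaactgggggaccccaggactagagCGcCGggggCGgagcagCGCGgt
The gene is on the minus strand for Atp2b2, Prdm16 and Ano1 and on the plus strand for Slc6a11 and Hrh1. RefSeq lists 3 starts for Atp2b2, 4 for Hrh1 and 1 for each of the others. Slc6a11 held 25 CG dinucleotides, Prdm16 22, Hrh1 21, and Atp2b2 and Ano1 16 each. The motif CG reads the same on both strands. At least 16 were found before 25.4% of the 32851 starts listed by RefSeq, and at least 25 before 10.7%, against a median of 6. These counts describe the sequence only, and no peak was placed on these bases.

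Regions that were still called at D4 were covered over less length there than at D2, as were the lists as a whole. Inside the 646 regions the D2 lists covered 28.4 Mb in replicate 1 and 23.9 Mb in replicate 2, and the D4 lists covered 6.20 and 4.16 Mb. Both D4 libraries lay well below both D2 libraries. D2 libraries averaged 26.1 ± 3.21 Mb (SD, n = 2), and D4 libraries 5.18 ± 1.44 Mb (SD, n = 2), so the D4 length was 19.8% of the D2 length. It was 21.8% within replicate 1 and 17.4% within replicate 2. Over the whole lists, D4 length was 10.2% of D2 length (10.4% and 9.90% within replicates 1 and 2), so lower D4 length held for the lists as a whole. With each EpiLC list cut to its strongest 1148 peaks, 124 regions were chosen and the share was 32.5%. These lengths come from the lists that chose the regions and are given without a test. The regions took up 36.8% and 43.0% of all D2 length in replicates 1 and 2, but 77.0% and 75.7% of all D4 length. Most of the D4 length thus lay in merged regions overlapped by both D2 lists, though these did not call every base of a region. The rule kept only regions with a D4 peak, so nothing is read from the contrast with the D2 shares.

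In a typical region the D4 peak was a short island inside a longer D2 stretch. The median region was 20.7 kb long, with quartiles of 10.6 and 46.4 kb, and lengths ran from 0.610 to 845 kb. Where a list called the region, the median covered length was 16.6 and 11.8 kb in the D2 replicates and 3.26 and 3.55 kb in the D4 replicates. Per region, the mean D4 length was a median of 13.1% of the mean D2 length, with quartiles of 4.89% and 31.7%. A D4 list without a peak counts as 0 in this mean. In the 229 regions called in both D4 lists the median was 23.9%. Covered length was lower at D4 than at D2 in 610 regions and higher in 36. In 514 regions (79.6%) both D4 lengths were below both D2 lengths, against 27.6% of all merged EpiLC regions. The rule used both days, so nothing is read from that difference.

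**Figure D1:**
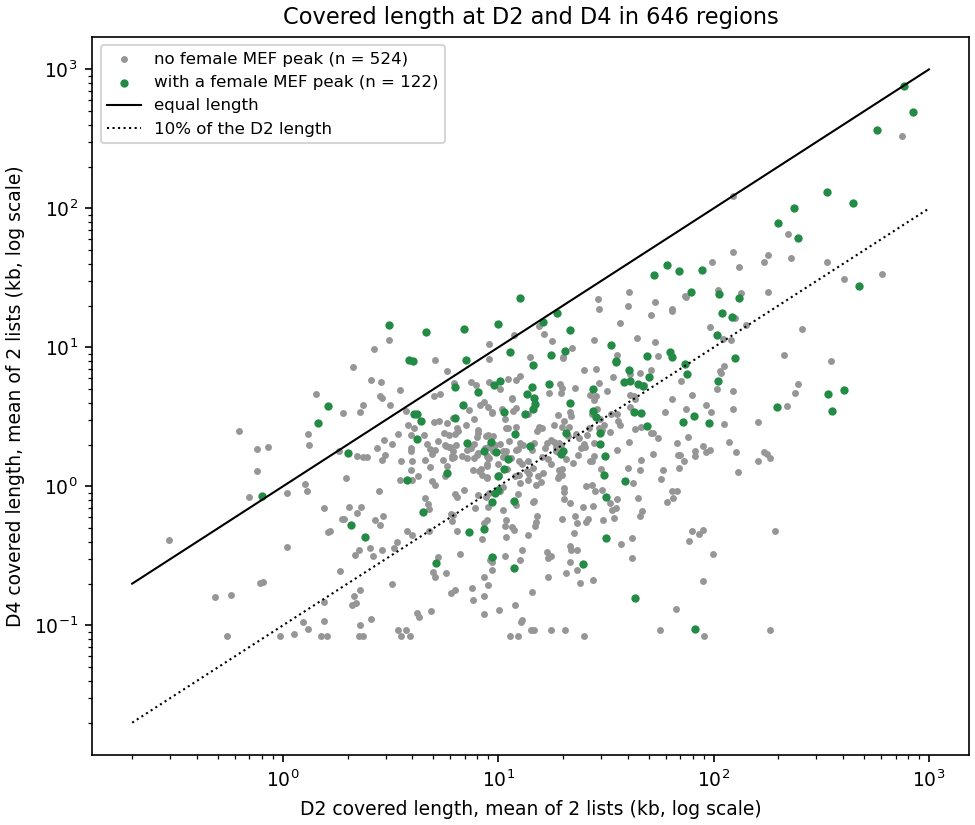
Mean covered length at D4 (vertical, kb, log scale) against D2 (horizontal, kb, log scale), 1 point per region, each the mean of 2 lists. Green points are the 122 regions with a female MEF peak and grey points the other 524; most points lie below the solid line of equal length, and 36 lie above it. The dotted line marks 10% of the D2 length.

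Pooled over regions, the midpoints of D4 peaks lay about equally in the inner and outer parts of the region. Of the D4 length inside the regions, 89.5% in replicate 1 and 85.6% in replicate 2 lay under a D2 peak of the same replicate number. D2 peaks covered 90.6% and 76.1% of the regions' length in these replicates. The share of D4 length was thus no higher than that of all region length in replicate 1, and above it in replicate 2. In the 332 regions of at least 20 kb, the midpoints of 54.0% of 694 D4 replicate 1 peaks and 52.1% of 526 replicate 2 peaks fell in the inner 50% of the region. D4 peaks in these regions had median lengths of 3.38 and 3.12 kb. The midpoint shares pool peaks over regions, and a long region can add many, so the place within single regions was not read from them. Fold enrichment is known only for called peaks, so its medians lie near the lowest fold each list holds for these regions (2.38 to 2.67). The highest fold of a region had medians of 2.70 and 2.91 in D2 replicates 1 and 2, against 2.85 and 2.88 in those of D4, over the 513 and 362 regions called there. Within replicate 1 the D4 value was above the D2 value in 387 of 513 regions (median difference 0.13), and within replicate 2 in 145 of 362 (median difference -0.04). The replicates thus did not share a direction.

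The D4 replicates often called different regions, or different places in a region. Of the 646 regions, 229 were called in both D4 lists, 284 in replicate 1 only and 133 in replicate 2 only. Of the regions of both D2 lists, 19.4% were called in at least 1 D4 list and 6.89% in both, and these shares are fixed by the rule. Inside the 646 regions, length shared by both replicates made up 69.3% of their joint length at D2 and 31.7% at D4 (20.9% without the 2 longest chromosome 6 regions). The days cannot be compared by these shares, because D2 peaks covered 90.6% and 76.1% of the regions' length in replicates 1 and 2, and D4 peaks 19.8% and 13.3%. In 145 of the 229 regions called in both D4 lists the D4 peaks of the replicates shared at least 1 bp, and in the others they lay apart. The count of regions depends on the longer D4 list, since without D4 replicate 1 it was 358.

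A choice made on 1 replicate could be read in the other, which the choice had not used. Joining only the replicate 1 lists gave 636 regions called at D2 and D4, and 243 of them (38.2%) also had a peak in D4 replicate 2. Among the 7573 replicate 1 D2 regions without a replicate 1 D4 peak, 203 (2.68%) had one. In the other direction, 242 of 422 regions chosen on replicate 2 (57.3%) had a D4 replicate 1 peak, against 444 of 7106 (6.25%). These shares were not matched for length, and long regions of both D2 lists were called at D4 more often than short ones. Regions chosen on replicate 1 held 18.6 Mb of D2 replicate 2 peaks against 3.56 Mb of D4 replicate 2 peaks, so the D4 share was 19.2%. Those chosen on replicate 2 held 12.6 Mb of D2 and 4.30 Mb of D4 replicate 1 peaks, a share of 34.2%. Both shares were above the 9.90% and 10.4% of the whole lists of the measured replicate, and they differed between the directions. No test was run over regions, which are not replicates of a day.

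The 8 longest regions went different ways. The interval from Atp2b2 to Hrh1 (chr6:113678325-114446320, 768 kb) was covered almost whole in all 5 female lists. Its covered length was 768.0 and 760.9 kb in D2 replicates 1 and 2, 761.3 and 753.7 kb in D4 replicates 1 and 2, and 676.7 kb in female MEFs, against 0.432 kb in male MEFs. D4 length was thus 99.1% of D2 length. A single piece of 752 kb, chr6:113693276-114445576, was covered in both D4 lists, and 90.0% of it lay under female MEF peaks. Those peaks covered 88.1% of the whole region.

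The longest region, also on chromosome 6 and reaching from Atg7 toward Pparg (chr6:114715636-115560562, 845 kb), was nearly empty in fibroblasts. Atg7 encodes an enzyme of autophagy and Pparg the main regulator of fat cell formation, with Vgll4, Tamm41, Syn2 and Timp4 between them in gene order. D2 replicates 1 and 2 covered 844.9 and 833.7 kb of it, D4 replicates 515.5 and 467.9 kb, female MEFs 0.965 kb and male MEFs none. D4 length was 58.6% of D2 length, broken into 30 and 32 peaks in the D4 replicates. The longest piece covered in both D4 lists was chr6:114716490-114875668 (159 kb), at the end nearer to the Atp2b2 to Hrh1 interval. Between these long regions lay 4 others, from chr6:114450705-114456848 to chr6:114586632-114709418.

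The long region at the Prdm16 locus (chr4:153610527-154214577, 604 kb) was called in all female lists, as 1 peak in D2 replicate 1 and in pieces in the others. D2 replicates covered 597.5 and 552.4 kb, D4 replicates 418.9 and 311.7 kb, female MEFs 375.1 kb and male MEFs 3.41 kb. D4 length was 63.5% of D2 length, in 16 and 30 peaks. Of the female MEF length there, 87.4% lay under a D4 peak of at least 1 list. Of the length called in at least 1 D4 list, 66.8% lay under female MEF peaks, which covered 62.1% of the whole region. The longest pieces covered in both D4 lists were chr4:153910039-153943573 (33.5 kb) and chr4:153731048-153753517 (22.5 kb).

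The region at the Ano1 end of chromosome 7 (chr7:151655245-152436944, 782 kb) was called in the EpiLC lists only. Fgf3 and Fgf4, which encode growth factor ligands, follow Ano1 in gene order. D2 replicates covered 775.9 and 721.3 kb and D4 replicates 415.3 and 247.1 kb, and neither MEF list had a peak there. D4 length was 44.2% of D2 length. The longest piece covered in both D4 lists was chr7:151787546-151867365 (79.8 kb). Between a shared piece ending at 151961467 and another starting at 152163293, the D4 replicates had only 0.428 kb in common.

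At the Hes1 locus on chromosome 16 (chr16:29662172-30287914, 626 kb) only small islands were called at D4, and the replicates placed the main island alike. Hes1 encodes a transcriptional repressor that acts downstream of Notch. D2 replicates covered 620.4 and 591.4 kb and D4 replicates 34.4 and 33.5 kb, while female MEFs had no peak and male MEFs 0.209 kb. D4 length was 5.60% of D2 length. Of the D4 length, 16.4 kb at chr16:30054801-30071203 and 3.51 kb at chr16:30006440-30009950 were covered in both D4 lists.

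**Figure D2:**
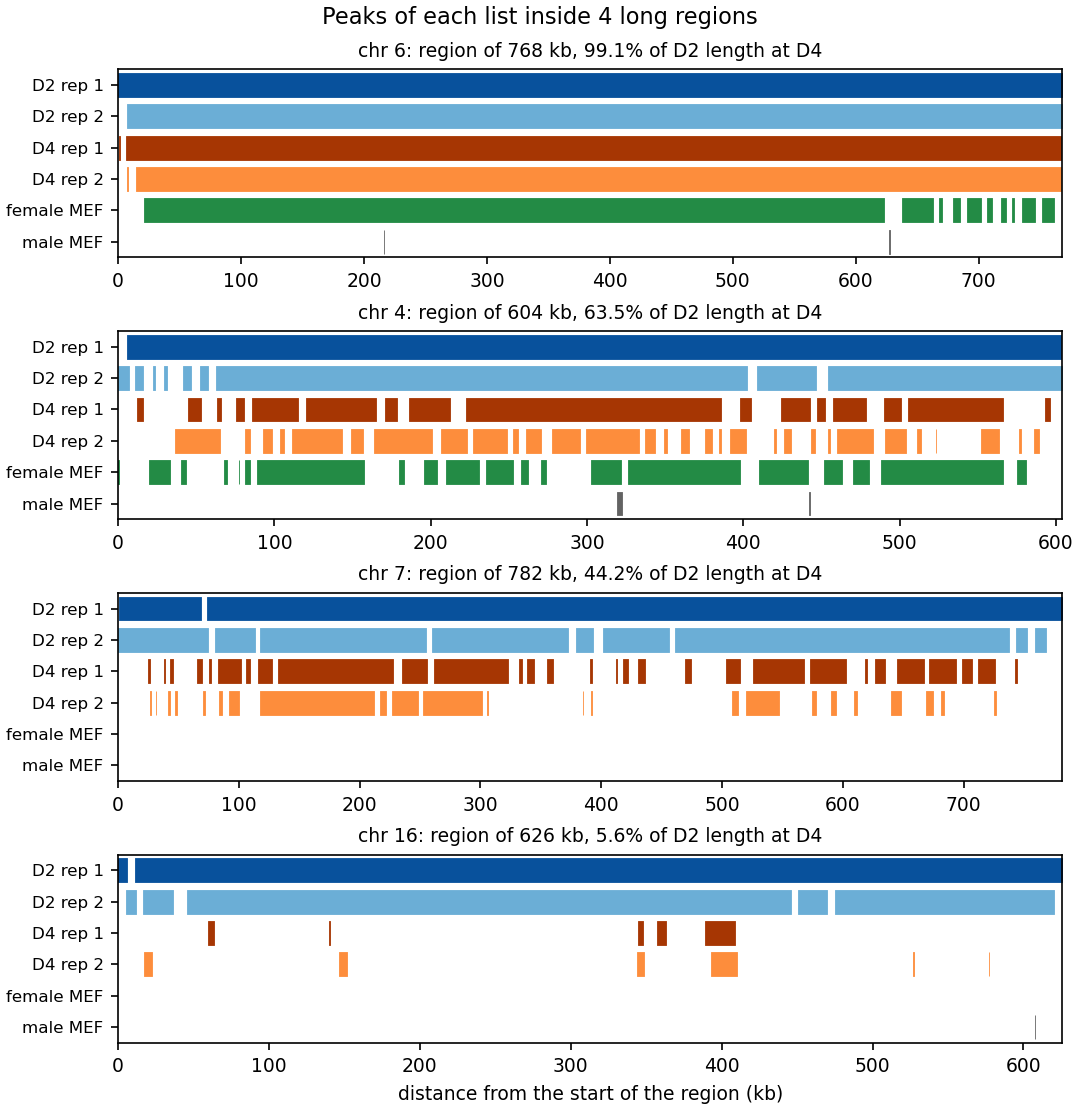
Peaks of each of the 6 lists inside 4 long regions on chromosomes 6, 4, 7 and 16; the horizontal axis is the distance from the start of the region in kb and each bar is 1 peak. The chromosome 6 region is covered throughout at D2 and D4 (99.1% of D2 length at D4), while the chromosome 16 region has 5 and 6 short D4 peaks (5.60%).

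In the other 3 of the 8 longest, D4 cover was at most 123.1 kb. On chromosome 5 (chr5:112832784-113325256, 492 kb), D2 covered 482.2 and 408.7 kb, D4 123.1 and 95.2 kb, and female MEFs 399.2 kb. Its D4 length was 24.5% of D2 length, while the female MEF cover was close to that of D2 replicate 2. Of the length called at D4 there, 92.4% also lay under female MEF peaks, which covered 81.1% of the whole region. On chromosome 15 (chr15:78051030-78552519, 501 kb), D2 covered 495.2 and 452.8 kb, female MEFs 93.5 kb, and the D4 replicates 53.3 and 2.34 kb with no shared base. On chromosome 9 (chr9:43176679-43613017, 436 kb), D2 covered 431.9 and 375.7 kb, D4 6.71 and 3.25 kb, also with no shared base, and female MEFs 4.81 kb. The D4 value of the chromosome 15 region rests mainly on replicate 1.

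**Figure D3:**
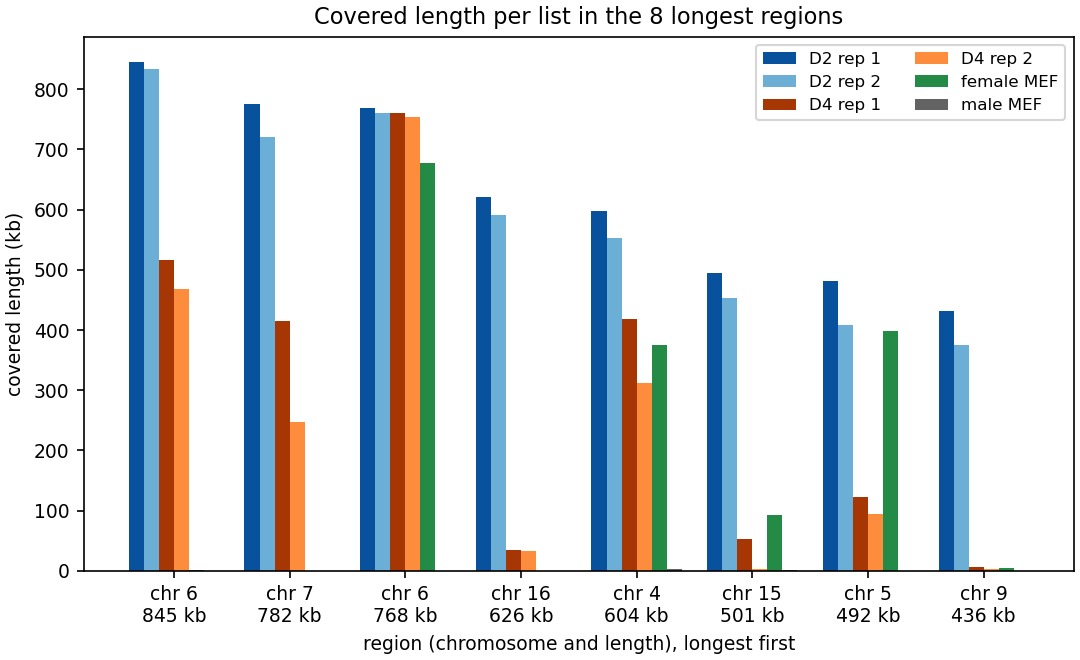
Covered length in kb (vertical) of each of the 6 lists in the 8 longest regions (horizontal, named by chromosome and length), 1 bar per library. The 768 kb region on chromosome 6 has bars of 754 to 768 kb in all 4 EpiLC libraries, whereas on chromosomes 16 and 9 both D4 bars are at most 34.4 kb.

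Ranked by share of D2 length covered at D4, the 151 regions called in both D4 lists with at least 10 kb in each D2 list ran from 0.981% to 99.4%. At the low end, chr10:60298368-60445028 had 142.2 and 117.4 kb in D2 replicates 1 and 2 but 2.17 and 0.372 kb in those of D4. The chromosome 9 region of 436 kb (1.23%), chr7:149483429-149847031 (1.36%), chr9:102534017-102703592 (1.79%), chr4:125453677-125666945 (1.89%) and chr11:59661528-59766810 (1.903%) came next. The chromosome 4 region among these differed from the rest in fibroblasts, where female MEF peaks spanned 148.8 kb, against 213.3 and 182.3 kb in the D2 replicates and 5.76 and 1.71 kb in the D4 replicates. At the high end, chr6:114586632-114709418 was covered over 122.8 kb in each D2 list and 122.7 and 121.5 kb in the D4 lists, with no MEF peak. It lies between the Hrh1 and Pparg ends of the chromosome 6 stretch and was followed by the Atp2b2 to Hrh1 interval. The next 4 were chr4:150806798-150833950 (94.8%), chr4:151026564-151055052 (94.5%), chr6:125748559-125777824 (92.4%) and chr5:120356371-120396804 (76.6%). In the first 3 of these 4 the D4 replicates disagreed on whether the D4 length was above or below that of D2. On chr4:150806798-150833950, for example, replicate 1 went from 16.5 kb at D2 to 22.8 kb at D4 and replicate 2 from 15.7 to 7.77 kb.

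The regions of highest fold enrichment lay mainly on chromosome 6, which held 5 of the first 8. The first by mean rank over the lists that call them was chr6:114512720-114515781, with highest folds of 14.1 and 11.8 in the D2 replicates and 12.3 and 9.31 in the D4 replicates. Covered length there was 3.05 and 2.94 kb in D2 replicates 1 and 2 and 3.04 kb in D4 replicate 1, but 0.341 kb in D4 replicate 2. The second, chr6:114475049-114489277, had D2 folds of 10.4 and 7.18 and D4 folds of 9.28 and 4.38. These were followed by chr6:114586632-114709418 (7.19, 6.66, 4.42 and 4.19 in D2 replicates 1 and 2 and D4 replicates 1 and 2) and chr6:114450705-114456848, which D4 replicate 2 did not call. The fifth, chr2:114583221-114584087, was a narrow site of 0.867 kb with D2 folds of 4.38 and 4.42, D4 folds of 6.26 and 5.43 and a female MEF fold of 6.43. Its D4 folds were above both D2 folds, unlike the chromosome 6 sites. The Atp2b2 to Hrh1 interval was sixth, with folds of 4.56, 4.59, 4.02 and 3.82. The last 2 of the 8, chr5:53971677-53985537 and chr9:55335165-55366145, had no MEF peak.

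A few regions covered more at D4 than at D2. The 36 regions with a higher mean D4 length were short, with a median of 10.2 kb and none above 33.2 kb. Of these 36, 11 had a female MEF peak, against 122 of all 646 regions (18.9%). Chromosome 4, where 50 of 90 regions had a female MEF peak, held 9 of the 36, and the 11 were not read without it. In 10 of the 36, both D4 lengths were above both D2 lengths. The largest ratio among those 10 was at chr15:74265210-74287016, chosen here after its values were seen. D2 replicates covered 3.36 and 2.87 kb of it, D4 replicates 17.2 and 11.9 kb, and the female MEF list all 21.8 kb. Another of the 10, chr11:113876436-113907038, lower in ratio (178%), went from 17.0 to 25.8 kb in replicate 1 and from 8.28 to 19.2 kb in replicate 2. The female MEF list covered all 30.6 kb of it. Next by ratio after the chromosome 15 region were chr3:102405806-102423437, chr6:127131588-127150362, chr6:125706023-125713255 and chr9:119633989-119643389, all without a female MEF peak. Of the rest, chr13:51938063-51949328 and chr4:41040047-41041791 also had none, and chr4:152947485-152964126 and chr2:114583221-114584087 had one.

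Long D2 regions were called at D4 more often than short ones. Of the 98 regions of both D2 lists of at least 100 kb, 75 (76.5%) were called at D4, and of the 742 under 5 kb, 66 (8.89%). The shares in between were 9.22% at 5 to 10 kb, 19.2% at 10 to 20 kb, 31.7% at 20 to 50 kb and 52.0% at 50 to 100 kb. A longer region offers more length on which a D4 peak can fall, and the rule fixed the choice, so this is a description. The median share of D2 length covered at D4 was lower in the longer classes, though not in strict order. It was 25.8% under 5 kb, 34.4% at 5 to 10 kb, 17.1% at 10 to 20 kb, 9.41% at 20 to 50 kb, 5.81% at 50 to 100 kb and 6.07% at 100 kb or more. Median mean D4 length was 0.472 kb in regions under 5 kb, 2.01 kb at 20 to 50 kb and 8.77 kb at 100 kb or more, while the median D2 length over the same classes was 2.05, 21.1 and 131.9 kb. The regions not called at D4 were shorter (median 8.88 kb) and had D2 folds of 2.63 and 2.83, against 2.70 and 2.91.

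Female MEF peaks, which the rule did not use, lay in 122 of the 646 regions (18.9%, 95% exact binomial interval 15.9 to 22.1%). Over all merged EpiLC regions the share was 5.61%, over all regions of both D2 lists 6.71%, and over the regions of both D2 lists without a D4 peak it was 3.77% (101 of 2676, interval 3.08 to 4.57%). The intervals cover counting error only, and neighbouring regions are not independent. As the regions called at D4 were also longer, shares were read within length classes. They were 17.7% against 4.62% at 10 to 20 kb, 21.8% against 6.74% at 20 to 50 kb, 24.4% against 5.56% at 50 to 100 kb, and 22 of 75 against 0 of 23 at 100 kb or more. In each of the 6 length classes the share was higher among regions called at D4. Without chromosome 4 the shares were 12.9% and 2.23%. With only peaks of a −log10 q of at least 2 in all lists, the female share was 10.0%, over 50 regions. That cut left 52 of the 1020 female MEF peaks. With each EpiLC list cut to its strongest 1148 peaks the female share was 10.5%, the same as the male share there. Shares of the regions without a D4 peak were not taken under either cut, so the difference from them cannot be judged there. With 1 female MEF library there is no replicate check, and the difference was not tested.

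**Figure D4:**
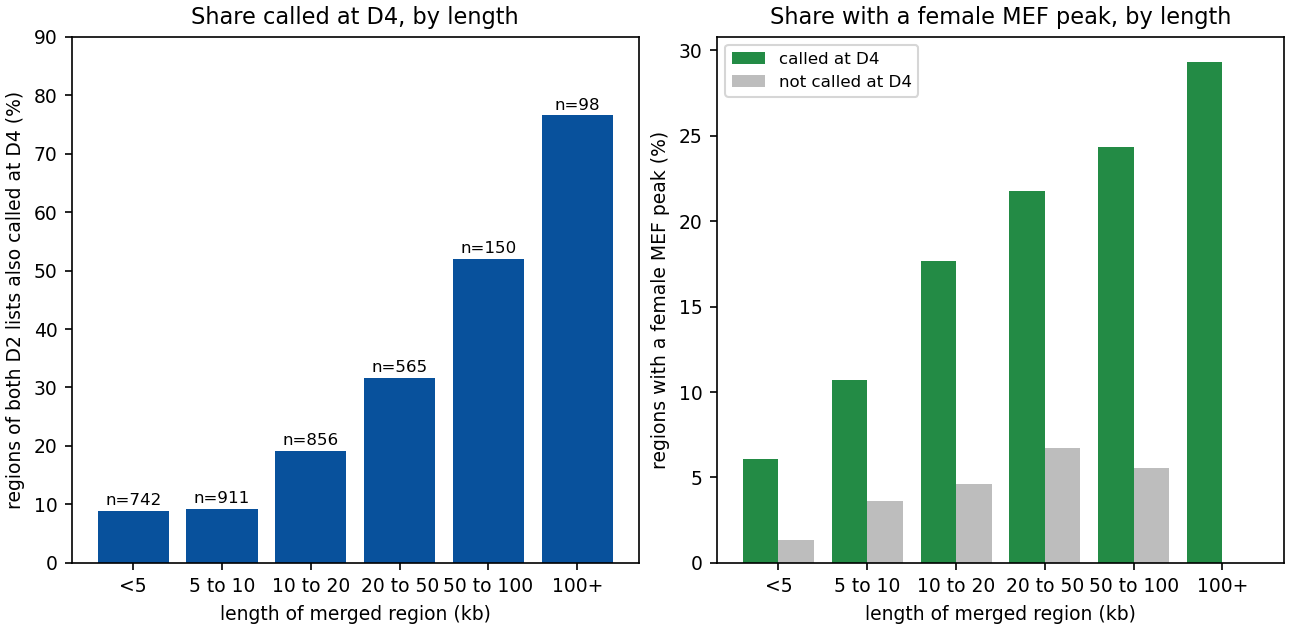
Left, share (%) of the regions of both D2 lists that were called in at least 1 D4 list, by length of the merged region in kb, with the number of regions above each bar. Right, share (%) with a female MEF peak among regions called at D4 (green) and not called at D4 (grey); green is higher in every class, from 6.06% against 1.33% under 5 kb to 29.3% against 0% at 100 kb or more.

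The share with a female MEF peak was higher where more of the D2 length was covered at D4. It was 12.8% of the 273 regions with under 10% of D2 length at D4, 19.9% of the 277 with 10 to 50%, and 33.3% of the 96 with 50% or more, although the median length of these classes was 32.0, 16.6 and 10.5 kb. It was 29.3% of the regions in both D4 lists and 13.2% of those in 1. Chromosome 4, where 50 of 90 regions had a female MEF peak, held 29, 38 and 23 regions of these classes in that order. It also held 47 of the 229 regions in both D4 lists, and these shares of regions were not read without it. Read by length, the D2 stretches common to both D2 lists were under female MEF peaks over 9.56% where no D4 list had a peak, 20.0% where 1 had and 44.7% where both had. The order was the same without chromosome 6 (10.1%, 22.5% and 34.2%) and without chromosomes 4 and 6 (6.86%, 14.6% and 19.2%). Region by region no such order was seen. Among the 94 regions with D2 length both covered and not covered at D4 and with female MEF cover on it, the female MEF share was higher in the covered part in 34, higher in the other part in 30 and equal in 30.

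The 10 regions with the longest female MEF cover included 4 of the 8 longest, namely the Atp2b2 to Hrh1, chromosome 5, Prdm16 and chromosome 15 regions. The keratin stretch chr15:101516949-101875943, part of the type II keratin gene cluster, had 347.6 and 325.3 kb of D2 cover, 159.1 and 102.0 kb of D4 cover and 206.9 kb of female MEF cover. Keratins of this cluster are structural proteins of epithelial cells. In 5 of the 10, D4 length was under 10% of D2 length while female MEFs covered 88.0 to 148.8 kb, as at chr4:125453677-125666945 and chr4:138018594-138404687 (101.2 kb in female MEFs, 7.01 and 0 kb at D4). The other 3 of these 5 were chr15:78051030-78552519, chr15:77817288-77927565 and chr5:113349962-113507606. The tenth, chr4:139708267-139787737, was covered over all 79.5 kb in female MEFs and over 51.3% of its D2 length at D4. Long female MEF cover thus occurred both with and without long D4 cover.

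Male MEF peaks touched 43 of the 646 regions (6.66%, interval 4.86 to 8.86%), against 1.14% of all merged EpiLC regions, 2.56% of all regions of both D2 lists and 1.57% of the regions without a D4 peak. They covered 0.0232 Mb in all, which is 0.0740% of the regions' length, while the female list covered 14.3%. A long region is more easily touched by a short peak. As with the female list, the male share was higher among regions called at D4 in each of the 6 length classes. It was 1.52% against 0.740% under 5 kb, 2.38% against 0.846% at 5 to 10 kb, 3.05% against 1.88% at 10 to 20 kb, 3.35% against 2.59% at 20 to 50 kb, 8.97% against 4.17% at 50 to 100 kb and 29.3% against 17.4% at 100 kb or more. The longest male cover was 3.41 kb at the Prdm16 region, 3.40 kb at chr4:125453677-125666945, 3.25 kb at chr4:118673011-118784356, 1.24 kb at chr6:113568847-113650358, 1.18 kb at chr15:101138065-101406497 and 1.06 kb at chr11:113609147-113618890. When a list had to cover at least 1 kb to count, 1.22% of the regions had male cover and 20.0% had female cover. The male share was 3.94% without D2 replicate 1. Both MEF lists had peaks in 15 of the 646 regions. This count was not taken over all merged EpiLC regions, so nothing is read from it.

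The regions were spread unevenly over the chromosomes. Chromosome 4 held 90 (29.6% of its regions of both D2 lists), chromosome 9 held 84 (23.1%) and chromosome 6 held 66 (26.5%), together 37.2% of all. Chromosomes 15 (30.4%), 8 (28.3%) and 5 (28.1%) also had high shares, and chromosomes 18 (7.06%), 3 (8.08%) and 19 (9.23%) low ones, against 19.4% over all chromosomes. Length covered at D4 was 51.7% and 52.0% of the D2 length on chromosome 6 in replicates 1 and 2, but 7.67% of the mean on chromosome 9, where D2 length was greater (3.51 Mb against 2.92 Mb in replicate 2). The 2 longest regions of chromosome 6 made up 5.68% and 6.68% of the D2 length of all 646 regions and 20.6% and 29.3% of their D4 length. Without those 2, D4 length over all chromosomes was 16.03% of D2 length. All 66 chromosome 6 regions made up 11.8% and 12.2% of the D2 length in replicates 1 and 2, and 27.9% and 36.5% of the D4 length. Most of the D4 length of chromosome 6 thus lay in its 2 longest regions, and its 51.7% and 52.0% rest largely on them. The value of chromosome 6 without them was not taken, and its median share per region was 26.3%, against 13.1% over all 646. Female MEF peaks lay in 50 of the 90 chromosome 4 regions, 20 of 46 on chromosome 11 and 12 of 21 on chromosome 15, but in 7 of 84 on chromosome 9 and 4 of 66 on chromosome 6. Among the regions without a D4 peak, leaving out chromosome 4 also lowered the share, from 3.77% (101 of 2676) to 2.23% (55 of 2462). Their shares were not taken for each chromosome, so the counts above are not read as a trait of the 646.

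**Figure D5:**
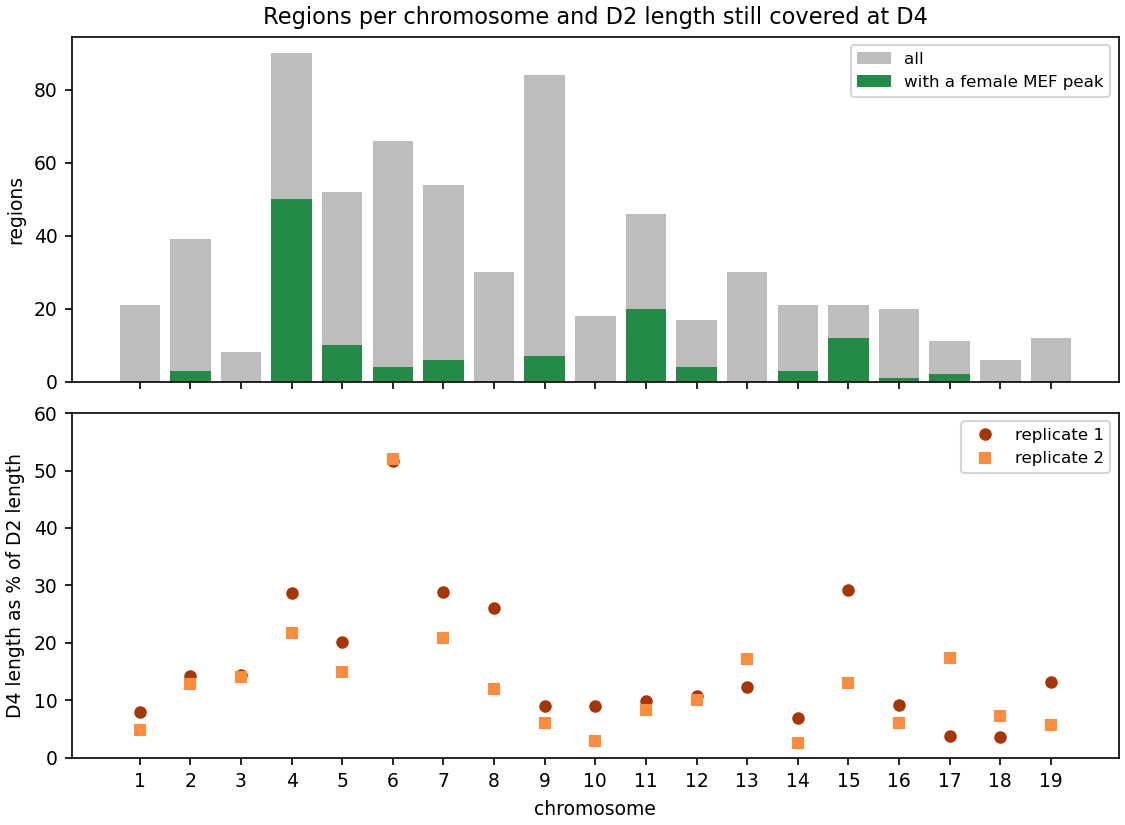
Top, number of regions per chromosome (grey) and of those with a female MEF peak (green). Bottom, D4 covered length as a percentage of D2 covered length, 1 point per replicate (circles replicate 1, squares replicate 2). Chromosome 6 stands at 51.7% and 52.0%, all others below 30%. Most of the chromosome 6 D4 length lay in its 2 longest regions.

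Many regions lay in groups and toward the distal end of a chromosome. With regions at most 100 kb apart joined, the 646 formed 329 groups, of which 213 held a single region and 24 held at least 5, with 202 regions between them. The largest was chr11:113785993-115019349 with 20 regions, 15 of them with a female MEF peak. Its D2 cover was 803.7 and 645.4 kb, its D4 cover 101.6 and 64.3 kb, and its female MEF cover 316.1 kb. At the Camta1 locus, named for a calmodulin-binding transcription activator, 14 regions lay in chr4:150536753-151265360. Their D2 cover was 527.1 and 508.8 kb, their D4 cover 299.2 and 202.8 kb and their female MEF cover 263.7 kb, so D4 length was 48.5% of D2 length. The group around Prdm16, chr4:152947485-154336254, also held 14 regions. No such grouping was counted for the regions without a D4 peak, so it is not read as a trait of the 646 alone. The last 10% of the stretch between the first and last peak of a chromosome held 30.0% of the 646 regions (26.6% without chromosome 4), against 16.03% of the regions without a D4 peak. The first 10% held 1.55% and 2.17%.

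At the edge of the rule, a single short D4 peak was enough. The least D4 length was 0.169 kb, in D4 replicate 1 only, and 12 regions shared it, among them chr2:76485537-76486271, chr9:61280659-61384307 and chr9:97003665-97017124. The second of the 3 named was covered over 103.6 and 76.8 kb at D2. In all, 118 regions had under 1 kb of D4 length summed over both lists. Just outside, chr2:28075892-28078826, chr14:26397233-26417331 and chr11:114207119-114215371 had no D4 peak but lay 37, 45 and 92 bp from one, and 138 of the 2676 regions without a D4 peak lay within 10 kb of one.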

How the data were processed

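RAP-seq peak lists of 6 Xist pulldowns were used, 1 per library, and the 5 inputs were not analysed here. The tools named in the submitters' processing notes are MACS2 2.2.7.1, Bowtie2 2.2.9, Trim Galore 0.4.1, bedtools 2.26.0, Picard and SAMtools 1.9, on mm9. Sources used here give neither their settings nor the input behind each list. Fold enrichment, a linear ratio, and −log10 values of p and q were deposited by the authors for each peak. The deposited score was not used. The starts and ends deposited by the authors are in bp.

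Covered length is the length of a region under a list's peaks. Merging and covering were tested on simulated data. Python 3.11.15, pandas 2.3.3 and scipy 1.17.1 were used. The regions named are the 8 longest, the 8 of best mean fold rank, the 6 least and 6 most covered at D4, the 10 longest in female MEFs, 6 in male MEFs and those at the edge of the rule. The members and lists were chosen with earlier results of these data known. Gene overlaps and gene lists were not used, since no mm9 annotation was at hand. No test was run, because the rule used the lists of both days and MEFs had 1 library each.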

Additional observations from a re-analysis of the deposited data

How the results depend on the processing

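Of 54 alternative values for the number of regions, the D4 length as a share of D2 length, the shares with female and male MEF peaks and the number of regions shorter at D4 in both replicates, 28 stayed within the replicate spread, the binomial interval or 1.5 times the count, and 26 moved; D4 length stayed below D2 length in each. With only peaks of a −log10 q of at least 2 in all lists, 50 regions were left, with D4 length at 24.6% of D2 length, 10.0% in the female list, 0.0% in the male list and 46 shorter at D4 in both replicates. That cut left 52 female and 51 male MEF peaks. With both D4 lists required the values were 229 regions, 27.3%, 29.3%, 10.9% and 193. With each EpiLC list cut to its strongest 1148 peaks they were 124 regions, 32.5%, 10.5%, 10.5% and 112, so the female share no longer exceeded the male share there. Counting a list from 1 kb gave 1.22% in the male list. The D4 share of D2 length was 13.1% as a median over regions, 34.2% for regions chosen on replicate 2 and measured in replicate 1, and, chosen after seeing the data, 15.5% without chromosome 6. The female share was 12.9% without chromosome 4. Leaving out each EpiLC library in turn gave 358 to 838 regions, D4 length at 19.7% to 26.7% of D2 length, 20.4% to 22.9% in the female list and 3.94% to 8.38% in the male list. The causes of these moves were not tested, beyond the fewer peaks that stricter settings leave. No paired analysis was possible because none of these results comes from a test; values within each replicate number are given instead. The share of regions that overlap a gene, and its alternatives, were not run. Sequencing depth is unknown and limits every count.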
